A study of Mus musculus with 12 samples.

Results

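The 45 genes described here are interferon-stimulated genes, a list drawn up from what is known of their induction by interferon. Its rule uses no value measured in these livers, although the members were chosen with earlier results of these data known. All 45 were found by symbol among the 24527 genes of the count table, and all 45 passed the filter on low counts that left 13204 genes for testing. The counts came from messenger RNA of whole mouse liver, 1 library per sample, with 3 libraries in each of 4 groups. Mice of the IVF groups were conceived by in vitro fertilization from CF1 females and B6SJL males, and mice of the natural groups came from matings of the same cross. Both modes of conception were sampled in females and in males, all at 39 weeks of age, and the labels give no other treatment or allele. Nothing in the labels states which litter a mouse came from, so the p-values below measure only the spread between these libraries. Libraries are numbered 1 to 3 within a group in the order of their records, and a number shared by groups pairs nothing. The titles of IVF female 1 and IVF male 2 share a leading number whose meaning the labels do not give.

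Interferons are secreted proteins that warn cells of infection. Type I interferons bind the receptor made of Ifnar1 and Ifnar2, whose kinases activate Stat2, and Stat2 and Irf9 take part in the complex ISGF3, which binds the interferon-stimulated response element (ISRE) in the promoters of its targets. Type II interferon, encoded by Ifng, acts through Ifngr1 and Ifngr2 and the gamma-activated site (GAS) in promoters, and it is the main inducer of guanylate-binding proteins and of the immunity-related GTPases. The induced proteins sense viral RNA, cut or hide it, block translation, modify other proteins with the ubiquitin-like protein Isg15, or feed back on the pathway. In the liver, hepatocytes, Kupffer cells (the resident macrophages) and endothelial cells can all express such genes.

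To show the element that many of these genes share, promoters were taken from RefSeq (GRCm38.p6, 250 bases before to 50 bases after the annotated start site). An entry was found for 33 of the 45 genes, and the other 12 were Usp18, Oas1b, Oas2, Mx1, Mx2, Zbp1, Rtp4, Dhx58, Parp9, Parp14, Iigp1 and Ifi27. The core of the ISRE, written here as GAAA, any 2 bases and GAAA again, was searched on both strands with overlapping matches allowed. It was present in 18 of the 33 genes (54.5%), beside 1079 of all 27025 genes with a promoter entry (3.99%). The motif TTCNNNGAA, the core of the GAS, which reads the same on both strands, was present in 9 of the 33 (27.3%), beside 9.55% of all genes. The 30-base windows below are examples from genes with a match that are described further on. They are written on the strand of the gene, with a match of the motif or its reverse complement in capitals. The windows of Isg15, Oas1a, Oas1g and Gbp3 hold further overlapping matches, which are left in lower case.
Isg15: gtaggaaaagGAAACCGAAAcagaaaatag
Ifit1: ccagtctcagTTTCAGTTTCtcactgctga
Ifit3: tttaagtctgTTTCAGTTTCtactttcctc
Oas1a: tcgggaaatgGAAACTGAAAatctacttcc
Oas1g: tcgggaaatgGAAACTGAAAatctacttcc
Oas3: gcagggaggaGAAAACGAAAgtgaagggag
Gbp2: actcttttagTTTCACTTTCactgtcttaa
Gbp3: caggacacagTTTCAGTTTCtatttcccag
Gbp7: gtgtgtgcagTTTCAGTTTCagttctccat
Igtp: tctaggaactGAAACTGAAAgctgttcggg
In GRCm38 these windows lie at chr4:156200871-156200900 for Isg15, chr19:34640794-34640823 for Ifit1, chr19:34583397-34583426 for Ifit3, chr5:120907520-120907549 for Oas1a and chr5:120887606-120887635 for Oas1g. The others lie at chr5:120777715-120777744 for Oas3, chr3:142620594-142620623 for Gbp2, chr3:142559989-142560018 for Gbp3, chr3:142530273-142530302 for Gbp7 and chr11:58199512-58199541 for Igtp. Isg15 and the Oas genes are on the minus strand, and the Ifit and Gbp genes and Igtp are on the plus strand. The windows of Oas1a and Oas1g were identical, and these neighbouring paralogs are close enough in sequence that reads may have been divided between them. A match is a description of letters, and no binding was measured here.

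**Figure D1:**
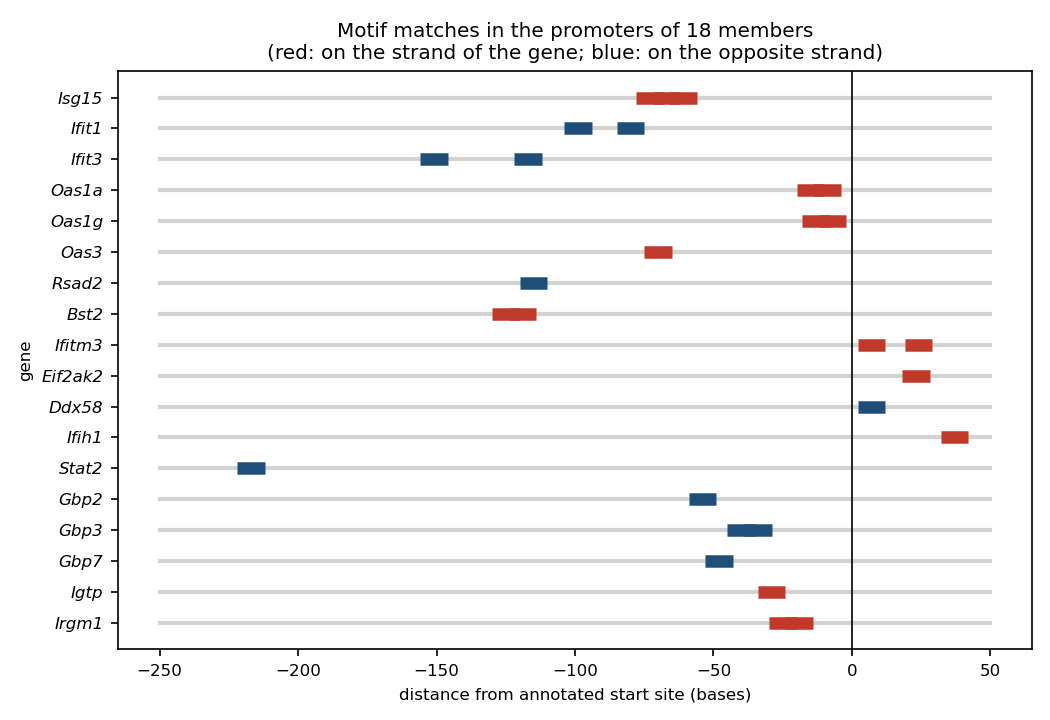
Positions of ISRE core matches (coloured blocks; red on the strand of the gene, blue on the opposite strand) in the promoters of the 18 genes that held at least 1, by distance from the annotated start site in bases. The grey line is the window searched, and in 14 of the 18 genes the match lay before the start site.

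Library totals ran from 6826534 to 27832271 counts. The smallest were IVF female 1 (6826534 counts) and natural female 2 (8056230), called shallow from here on, in which 3 counts correspond to 0.440 and 0.372 counts per 1000000 counts of the library (CPM). Of the 45 genes, 19 had at least 100 counts in every library and 6 had a library under 10 counts, namely Oas1a, Oas1b, Oas1g, Oas2, Oas3 and Mx1. The summed level of 6 hepatocyte markers, Alb among them, was 69692 to 103870 CPM in the 12 libraries, so the defining markers of the labelled tissue were abundant. Per kilobase of exon, Ifitm3 had the highest level of the 45 genes at 259 CPM per kb averaged over the libraries, followed by Iigp1 at 83.6, Bst2 at 69.7 and Ifi27 at 19.4. The lowest were Mx1 at 0.105, Oas3 at 0.143 and Oas1b at 0.215 CPM per kb. Mx1 is defective and Oas1b truncated in most laboratory strains, and the GENCODE M21 annotation lists Oas1b and Mx2 as polymorphic pseudogenes.

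IVF female 1 stood apart from the other 11 libraries in these genes. It held the highest value of all 12 libraries for 28 of the 45 genes, while natural male 2 held it for 6 and no other library for more than 3. As a score for each library, the log2 CPM of each gene was centred on its mean over the 12 libraries and averaged over the 45 genes. IVF female 1 scored 0.83, IVF female 2 scored 0.11 and IVF female 3 scored 0.24. Natural females scored -0.26, -0.20 and -0.09, so all 3 lay below the lowest IVF female. IVF males scored -0.25, -0.14 and -0.36, while natural males scored -0.22, 0.31 and 0.02. The male groups overlapped, because natural male 1 lay among the IVF males. The pooled SD of the score within groups was 0.24. IVF female 1 also stood apart over the 13204 tested genes together with natural female 2, the other shallow library: the log2 CPM of these libraries, which share low depth, correlated at r = 0.9645 across genes. With IVF females 2 and 3, r was 0.9412 and 0.9408 for IVF female 1. The score of natural female 2 averaged genes far above their mean over the libraries and genes far below it. On the centred log2 scale Gbp3 was at 1.08 and Gbp7 at 1.03 there, while Dhx58 was at -1.63 and Ifi35 at -1.62. The part of depth in the values of either shallow library was not tested.

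**Figure D2:**
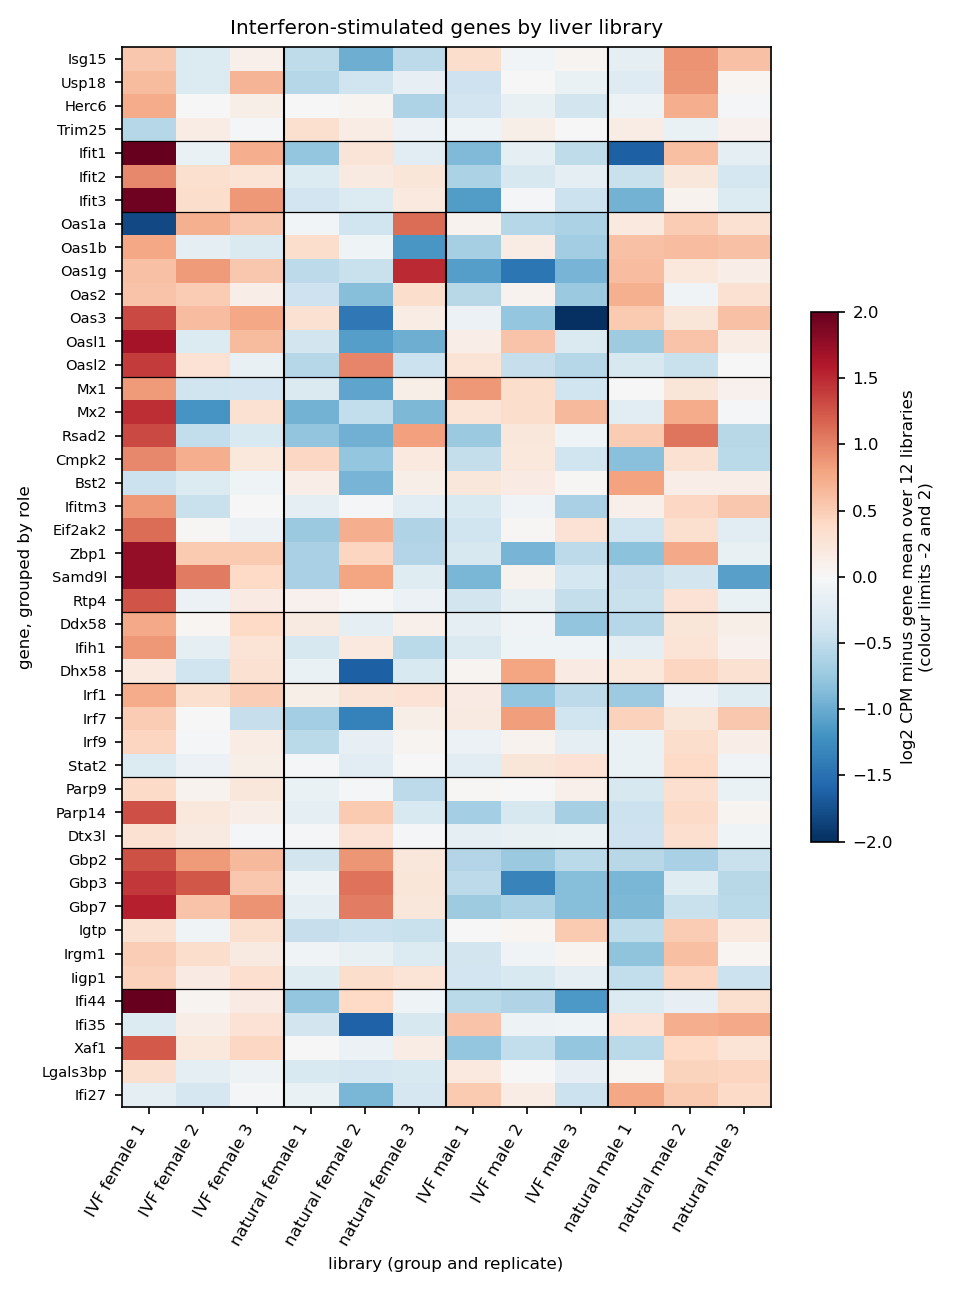
Log2 CPM of each of the 45 genes (lines of the map, grouped by role) in each of the 12 libraries (columns, by group), relative to the mean of the gene over the libraries; red is higher and blue is lower. The first column, IVF female 1, holds the highest value for 28 of the 45 genes.

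The first comparison asks whether conception by IVF went with another level of these genes in adult female liver. Of the 45 genes, 41 had a higher level in IVF than in natural females, with a median log2 fold change of 0.54, beside a median of -0.01 and 47.8% of genes higher over all 13204 genes tested. IFIT family genes had the highest median of the roles (1.33), and Trim25, Oas1a, Bst2 and Stat2 were the 4 genes with a lower level. Oas1a, Bst2 and Stat2 turned to higher in some fits with 1 library left out. The log2 effect of Oas1a went from -0.13 to 0.25 without IVF female 1 and to 0.53 without natural female 3. None of the 45 was called at an adjusted p under 0.05 (edgeR quasi-likelihood test, Benjamini-Hochberg over all genes), and the background was also 0% of all genes. DESeq2 called none of the 45 either, beside 0.0329% of all genes, and limma voom called none beside 0%. At an unadjusted p under 0.05 there were 11 of the 45, all higher, or 24.4% beside 3.7% of all genes in either direction and 1.7% higher, namely Isg15, Ifit1, Ifit3, Oasl1, Mx2, Zbp1, Samd9l, Parp9, Igtp, Ifi44 and Ifi35. In 13 of the 45 genes (28.9%) every IVF female lay above every natural female and in 0 below, beside 7.42% of all genes whose groups did not overlap in either direction and 3.55% higher. These 13 were Isg15, Ifit2, Ifit3, Oas3, Oasl1, Zbp1, Irf1, Parp9, Igtp, Irgm1, Ifi35, Xaf1 and Lgals3bp. Without IVF female 1 the median was 0.29, 39 of the 45 genes were higher, and 2 had an unadjusted p under 0.05. Effects of 6 of the 45 changed sign without it.

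In males the question is the same, and the direction was mostly the opposite. Of the 45 genes, 33 had a lower level in IVF than in natural males, with a median log2 fold change of -0.23, beside 0.01 and 51.6% of genes higher over all genes. None of the 45 was called (edgeR, adjusted p under 0.05), and 0.00757% of all genes, a single gene, was. DESeq2 called none of the 45 here, beside 0.0379% of all genes, and none in the interaction, beside 0.0683%; limma voom called none in either, beside 0%. Unadjusted p was under 0.05 for 4 genes, all lower (8.89% beside 2.69% of all genes in either direction and 1.48% lower), namely Oas1g, Oas3, Ifitm3 and Xaf1. The groups did not overlap for 7 genes, all lower (15.6% beside 8.91% of all genes in either direction and 4.07% lower), namely Herc6, Oas1a, Oas1b, Oas1g, Oas3, Ifitm3 and Ifi44. Without natural male 2 the median was -0.11, with 17 of the 45 genes higher. Scaling by library size alone put the median of all genes at 0.14 and that of the 45 genes at -0.10, with 18 higher.

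The difference between the sexes in the IVF effect was tested as an interaction, the effect in males minus the effect in females. It was negative for 43 of the 45 genes, with a median of -0.73, beside 0.03 and 53.6% of genes positive over all genes. None of the 45 passed the adjusted threshold in edgeR, and neither did any other gene (0%). Unadjusted p was under 0.05 for 16 genes, all negative, or 35.6% beside 3.87% of all genes in either direction and 2.09% negative. By sign, 30 genes were higher in IVF females and lower in IVF males, 11 were higher in both, 3 (Trim25, Oas1a and Bst2) were lower in both, and Stat2 alone was lower in females and higher in males. The median interaction was -0.51 without IVF female 1, with 6 genes at an unadjusted p under 0.05, and -1.03 without natural female 2.

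**Figure D3:**
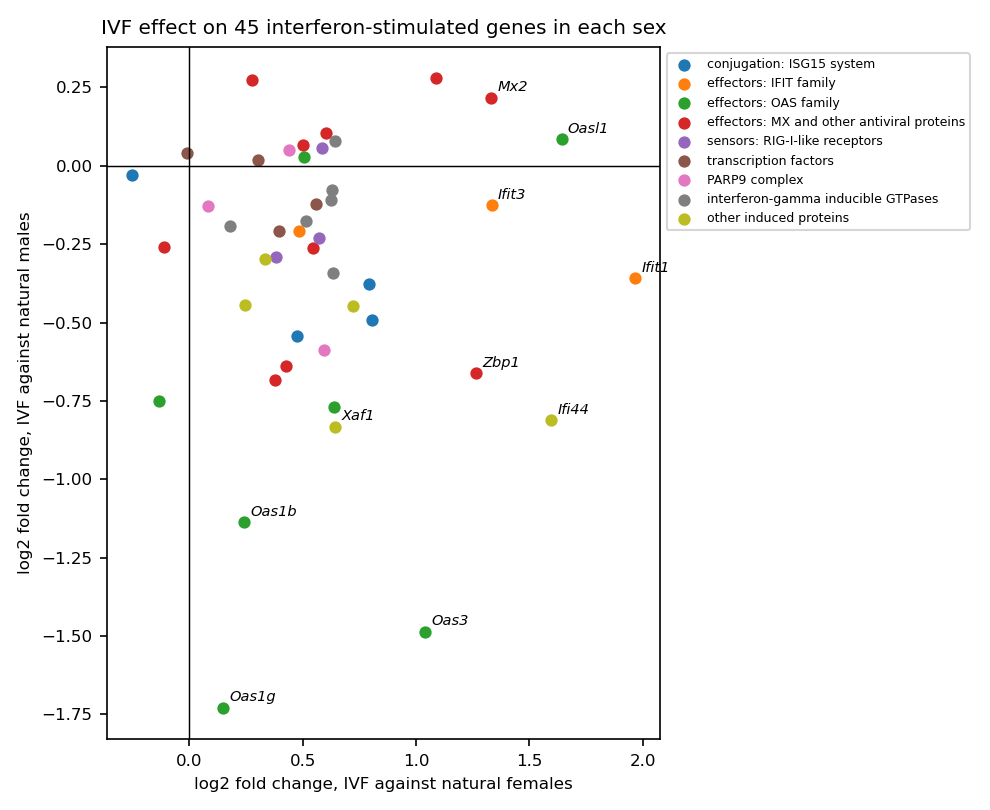
Log2 fold change of IVF against natural conception in females (horizontal axis) and in males (vertical axis) for each of the 45 genes, coloured by role. Points lie mostly right of 0 (41 genes) and below 0 (33 genes), with Ifit1 farthest right and Oas1g and Oas3 lowest; no point passed the adjusted threshold in either sex.

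Markers of other liver cells differed between the same groups. Of 8 Kupffer cell markers, Adgre1, Clec4f, Vsig4 and Csf1r among them, all 8 were lower in IVF than in natural males, with a median of -0.71. Of these, 5 had an unadjusted edgeR p under 0.05, beside 2.69% of all genes in either direction and 1.48% lower. For 6 the groups did not overlap, beside 8.91% of all genes in either direction and 4.07% lower. The summed level of the 8 markers was 167 to 249.6 CPM in IVF males, 309 to 343 in natural males, 344 to 508 in IVF females and 332 to 437 in natural females, and none of the 8 was at 0 in any library. Between IVF males and IVF females all 8 were lower as well, and Clec4f (-1.05 ± 0.21 on the log2 scale, ± standard error, adjusted p = 0.0215 in edgeR) and Vsig4 (-1.81 ± 0.27, adjusted p = 0.003901 in edgeR) were called. Of all genes, 2.19% were called there in either direction and 1.28% lower. In females 7 of the 8 Kupffer cell markers were higher in IVF mice with a median of 0.22. None had an unadjusted edgeR p under 0.05, beside 3.7% of all genes. Of the B cell markers, Jchain was lower in IVF males than in IVF females (-2.41 ± 0.48, adjusted p = 0.02197 in edgeR). The calls of Clec4f and Jchain were both lost without IVF female 2, IVF male 2 or IVF male 3 and each in further fits, and the call of Vsig4 was lost in none. In bulk liver, fewer cells of a type and less RNA per cell cannot be told apart, and the part of these markers in the differences above was not tested.

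Upstream of these genes, the ligands were close to undetected. Of 21 interferon genes in the table, 19 had 0 counts in every library, and a count of 0 allows at most 0.108 to 0.440 CPM depending on the library. The others were Ifnk, a type I interferon known mainly from skin, with 9 counts spread over 6 libraries, and Ifng, with 4 counts in 3 libraries. Of the receptors and their kinases 8 genes were tested, and none had an unadjusted edgeR p under 0.05 in either sex. Their log2 IVF effects lay between -0.19 and 0.25 in females and between -0.13 and 0.14 in males. Socs1, which inhibits the receptor kinases, was under the filter.

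Of the transcription factors, Stat2 and Irf9 are parts of ISGF3, Irf7 amplifies type I interferon production, and Irf1 drives much of the response to interferon-gamma. Stat2 had 49.3, 54.6 and 64.2 CPM in IVF females, 58.5, 51.1 and 59.96 in natural females, 51.2, 70.4 and 72.8 in IVF males and 54.04, 78.1 and 56.8 in natural males. Stat2 overlapped between all groups, with log2 IVF effects within 1 SE of 0, at -0.01 ± 0.20 in females and 0.04 ± 0.20 in males, of either sign with single libraries left out. Irf9 had 30.3, 22.1 and 25.1 CPM in IVF females, 15.5, 20.01 and 23.3 in natural females, 20.9, 23.6 and 19.6 in IVF males and 20.6, 28.7 and 24.7 in natural males. Irf9 was at 0.39 ± 0.21 in females and -0.21 ± 0.20 in males, and its highest single value was IVF female 1. Irf7 had 14.99, 10.6 and 7.65 CPM in IVF females, 6.54, 4.07 and 11.4 in natural females, 11.9, 18.9 and 8.01 in IVF males and 14.5, 12.4 and 15.3 in natural males. Irf7 overlapped between IVF and natural mice in both sexes, while every natural male lay above every natural female. Irf1 had 53.4, 39.9 and 45.1 CPM in IVF females, 34.6, 38.2 and 39.1 in natural females, 35.97, 18.8 and 22.3 in IVF males and 19.3, 29.5 and 27.2 in natural males. All 3 IVF females were above all 3 natural females for Irf1, although the effect was only 0.30 ± 0.25, and in males it was 0.02 ± 0.25, or -0.30 without IVF male 1. Both IVF and natural males lay wholly below the females of the same mode of conception. None of these 4 genes had an adjusted p under 1 in an IVF comparison (edgeR).

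The sensors of viral RNA are Ddx58 (RIG-I), Ifih1 (MDA5) and Dhx58 (LGP2), a regulator of both. Ddx58 had 37.8, 22.8 and 29.4 CPM in IVF females, 25.3, 19.4 and 23.9 in natural females, 19.4, 21.3 and 12.8 in IVF males and 14.9, 26.4 and 24.1 in natural males. Ifih1 had 61.4, 29.3 and 40.9 CPM in IVF females, 26.9, 38.3 and 23.1 in natural females, 27.5, 31.5 and 31.5 in IVF males and 29.8, 40.8 and 35.7 in natural males. In each of these genes IVF female 1 held the highest value, and the remaining IVF females lay close to or among the natural females. Log2 IVF effects were 0.38 ± 0.27 and 0.57 ± 0.27 in females and -0.29 ± 0.27 and -0.23 ± 0.27 in males, in that order. Dhx58, at 1.80 to 10.1 CPM, had 0.59 ± 0.36 in females and 0.06 ± 0.35 in males, where it was -0.21 without IVF male 2.

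Isg15 is the ubiquitin-like modifier itself, Herc6 and Trim25 are ligases linked to the system, and Usp18 removes Isg15 from proteins and restrains the type I receptor. Isg15 had 5.34, 2.99 and 3.89 CPM in IVF females, 2.53, 1.798 and 2.49 in natural females, 4.67, 3.49 and 3.803 in IVF males and 3.198, 6.84 and 5.49 in natural males. Every IVF female was above every natural female, at 0.79 ± 0.33 on the log2 scale or 1.73-fold (adjusted p = 1, edgeR). In males the groups overlapped at -0.38 ± 0.31, and the interaction was -1.17 ± 0.45 (adjusted p = 1 in edgeR). The lowest female effect of Isg15 in any fit was 0.47, without both shallow libraries. Usp18 had 2.82, 1.45 and 2.91 CPM in IVF females, 1.16, 1.32 and 1.56 in natural females, 1.304, 1.77 and 1.601 in IVF males and 1.46, 3.35 and 1.82 in natural males. Usp18 was at 0.81 ± 0.39 in females and -0.49 ± 0.37 in males, with overlap in both sexes. Herc6 had 25.7, 15.4 and 16.6 CPM in IVF females, 15.3, 15.9 and 9.96 in natural females, 11.7, 13.8 and 11.8 in IVF males and 14.2, 25.3 and 14.9 in natural males. For Herc6 the 3 IVF males lay below all 3 natural males (-0.54 ± 0.28), while females overlapped (0.48 ± 0.28). Trim25 had -0.25 ± 0.20 in females, where IVF female 1 was the lowest of all libraries at 60.7 CPM.

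The IFIT proteins bind viral RNA that lacks the host's cap modification and block its translation. Ifit1 had 30.6, 3.53 and 6.497 CPM in IVF females, 2.25, 4.67 and 3.36 in natural females, 2.06, 3.39 and 2.702 in IVF males and 1.19, 5.94 and 3.399 in natural males. Ifit3 had 28.2, 9.27 and 13.3 CPM in IVF females, 5.54, 5.99 and 8.28 in natural females, 3.295, 7.08 and 5.35 in IVF males and 3.7, 7.59 and 5.97 in natural males. For Ifit1 nearly all of the female difference lay in IVF female 1, and IVF female 2 was within the natural females. For Ifit3 all 3 IVF females were above all natural females, IVF female 1 by the widest margin. The female log2 effect was 1.97 ± 0.75 for Ifit1 and 1.33 ± 0.43 for Ifit3, both with adjusted p = 1 in edgeR. Ifit1 went to 0.60 without IVF female 1, and the lowest effect of Ifit3 in any fit was 0.72, without both shallow libraries. Male groups overlapped for both genes, at -0.36 ± 0.73 and -0.13 ± 0.42, which turned to 0.24 and 0.12 without natural male 2. Ifit2, at 2.20 to 6.83 CPM, had 0.48 ± 0.29 in females. Ifit3 has a near-identical neighbour, Ifit3b, with which its reads may be shared.

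Oligoadenylate synthetases (OAS) make the messenger that switches on the RNA-cutting enzyme RNase L. Oas3 had 2.23, 1.33 and 1.496 CPM in IVF females, 1.04, 0.2397 and 0.927 in natural females, 0.755, 0.443 and 0.1001 in IVF males and 1.23, 0.999 and 1.304 in natural males. Oas3 had the most negative interaction of the 45 genes, and every IVF female was above every natural female and every IVF male below every natural male. Its log2 effect was 1.04 ± 0.56 in females and -1.49 ± 0.58 in males, and the interaction was -2.53 ± 0.80 (adjusted p = 1, edgeR). Oas3 rests on few reads, with 2 counts in IVF male 3 and in natural female 2. Oas1g had 1.34, 1.62 and 1.28 CPM in IVF females, 0.562, 0.599 and 2.61 in natural females, 0.343, 0.246 and 0.4004 in IVF males and 1.37, 0.999 and 0.949 in natural males. For Oas1g the 3 IVF males were the lowest libraries, at -1.73 ± 0.58 against natural males (adjusted p = 1, edgeR), and females overlapped because of the single high value in natural female 3. Oas1a had 0.297, 2.203 and 1.92 CPM in IVF females, 1.24, 0.959 and 2.95 in natural females, 1.37, 0.836 and 0.801 in IVF males and 1.51, 1.897 and 1.62 in natural males. Oas1a, its near-identical neighbour, had its lowest value in IVF female 1, with 2 counts, and the IVF males lay below the natural males (-0.75 ± 0.55). Oas2 had 1.78, 1.704 and 1.28 CPM in IVF females, 0.842, 0.599 and 1.51 in natural females, 0.755, 1.23 and 0.651 in IVF males and 1.96, 1.098 and 1.46 in natural males. Oas2 overlapped in both sexes, at 0.64 ± 0.41 in females and -0.77 ± 0.40 in males. Oasl1 had 10.4, 2.62 and 5.001 CPM in IVF females, 2.45, 1.44 and 1.56 in natural females, 3.501, 4.77 and 2.602 in IVF males and 1.92, 4.79 and 3.56 in natural males. Oasl1, which lacks synthetase activity and restrains Irf7 translation, had all 3 IVF females above the natural females at 1.64 ± 0.51 (adjusted p = 1, edgeR), and the male groups overlapped (0.09 ± 0.48, or -0.20 without natural male 1). Oas1b was below the natural males in every IVF male, at -1.14 ± 0.54, on 3 to 9 counts per IVF male library, and Oasl2 overlapped in both sexes.

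Several other members act directly on viruses. Mx1 and Mx2 are dynamin-like GTPases that trap viral particles, and Rsad2 (viperin) makes a chain-terminating nucleotide. Mx1 had 0.742, 0.249 and 0.256 CPM in IVF females, 0.281, 0.1198 and 0.406 in natural females, 0.755, 0.492 and 0.2502 in IVF males and 0.365, 0.449 and 0.395 in natural males. Mx2 had 13.95, 2.12 and 6.16 CPM in IVF females, 2.53, 3.48 and 2.61 in natural females, 6.04, 6.35 and 7.81 in IVF males and 4.203, 8.34 and 4.86 in natural males. Rsad2 had 13.2, 3.7 and 4.19 CPM in IVF females, 2.97, 2.64 and 9.33 in natural females, 3.09, 6.101 and 4.904 in IVF males and 7.45, 11.1 and 3.52 in natural males. Mx1 rested on 1 to 11 counts per library, Mx2 was high in IVF female 1 but lowest of all libraries in IVF female 2, and Rsad2 varied widely within groups. The female log2 effect of Mx2 was 1.33 ± 0.54 (adjusted p = 1, edgeR), and without IVF female 1 it was 0.56. Rsad2 was at 0.42 ± 0.62 in females, which turned to -0.34 without IVF female 1, and at -0.64 ± 0.61 in males. Cmpk2, its neighbour on chromosome 12, overlapped in both sexes.

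Zbp1 senses unusual nucleic acid and can trigger cell death, and Eif2ak2 (PKR) shuts down translation on double-stranded RNA. Zbp1 had 15.7, 6.61 and 6.67 CPM in IVF females, 2.89, 6.23 and 3.01 in natural females, 3.64, 2.36 and 3.15 in IVF males and 2.56, 7.79 and 4.11 in natural males. All 3 IVF females were above all natural females for Zbp1, at 1.26 ± 0.48, and males overlapped at -0.66 ± 0.48, which gave an interaction of -1.92 ± 0.68 (adjusted p = 1, edgeR). Eif2ak2 had 57.6, 26.9 and 24.3 CPM in IVF females, 15.7, 43.9 and 17.3 in natural females, 20.1, 26.8 and 32.3 in IVF males and 20.01, 33.2 and 22.5 in natural males. Eif2ak2 was high in both shallow libraries, 1 from each female group, and the groups overlapped. Samd9l had 40.5, 24.4 and 15.7 CPM in IVF females, 7.501, 20.6 and 10.02 in natural females, 6.25, 12.5 and 9.31 in IVF males and 8.54, 9.14 and 5.53 in natural males. For Samd9l, which restrains translation and growth, the highest natural female was again the shallow natural female 2, and it lay within the IVF females. Its female effect was 1.09 ± 0.43 (adjusted p = 1, edgeR).

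Ifitm3 blocks the fusion of enveloped viruses with endosomes and was the most abundant member per length. Ifitm3 had 307, 123 and 166 CPM in IVF females, 146, 166 and 146 in natural females, 136, 160.3 and 107 in IVF males and 181, 223 and 244 in natural males. IVF female 1 was the highest library, the remaining females overlapped, and all IVF males lay below all natural males. Its effect was 0.38 ± 0.30 in females, or -0.056 without IVF female 1, and -0.68 ± 0.30 in males (adjusted p = 1, edgeR). Bst2 had 44.97, 49.9 and 57.02 CPM in IVF females, 66.5, 31.6 and 65.9 in natural females, 70.7, 67.7 and 61.5 in IVF males and 106, 66.4 and 66.7 in natural males. Bst2 (tetherin), which holds budding virus at the cell surface, went the other way from most members in females, with IVF female 1 below its group mates and an effect of -0.11 ± 0.28, which was 0.063 without natural female 3. Rtp4, a chaperone for receptors, was highest in IVF female 1 at 15.4 CPM, with 0.54 ± 0.33 in females and -0.26 ± 0.33 in males.

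Parp9 and Dtx3l form a complex that ubiquitylates histones, and Parp14 adds ADP-ribose to proteins in macrophages and other cells. Parp9 had 64.4, 52.1 and 57.9 CPM in IVF females, 45.1, 48.8 and 34.6 in natural females, 50.5, 49.4 and 53.3 in IVF males and 39.7, 62.9 and 45.4 in natural males. Parp14 had 103, 48.4 and 45.8 CPM in IVF females, 36.5, 60.3 and 33.9 in natural females, 26.02, 33.7 and 26.3 in IVF males and 31.1, 54.6 and 43.7 in natural males. IVF females were wholly above natural females for Parp9, by a small effect of 0.44 ± 0.20 (adjusted p = 1, edgeR), while Parp14 overlapped in both sexes. Parp14 was at 0.59 ± 0.34 in females and -0.59 ± 0.34 in males. Dtx3l was within 1 SE of 0 in both sexes, at 0.08 ± 0.20 and -0.13 ± 0.20, the latter 0.085 without natural male 2. Exons of Parp9 and Dtx3l overlap by 458 bases on opposite strands, and whether the counting used strand is not given in the sources used here.

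Of the remaining induced genes, Ifi44 and Xaf1 are linked to growth arrest and cell death, Ifi35 to signalling, and Lgals3bp is a secreted glycoprotein. Ifi44 had 8.31, 1.29 and 1.41 CPM in IVF females, 0.682, 1.68 and 1.16 in natural females, 0.824, 0.787 and 0.5005 in IVF males and 1.01, 1.098 and 1.58 in natural males. Xaf1 had 4.16, 1.995 and 2.31 CPM in IVF females, 1.72, 1.56 and 1.91 in natural females, 0.961, 1.18 and 0.951 in IVF males and 1.14, 2.297 and 2.09 in natural males. Most of the female difference in Ifi44 was IVF female 1, since its effect of 1.60 ± 0.68 went to 0.29 without that library. Xaf1 had every IVF female above every natural female, at 0.64 ± 0.35, and a male effect of -0.83 ± 0.36 (adjusted p = 1, edgeR). Ifi35 had 8.76, 11.6 and 12.9 CPM in IVF females, 8.14, 3.36 and 8.46 in natural females, 15.8, 9.84 and 9.91 in IVF males and 12.9, 17.5 and 17.9 in natural males. Lgals3bp had 56.5, 39.7 and 42.6 CPM in IVF females, 36.9, 36.1 and 36.8 in natural females, 52.04, 45.2 and 40.7 in IVF males and 46.3, 61.96 and 61.2 in natural males. For both genes the natural females were the lowest group, all IVF females lay above them, and the natural males held the highest mean. Female effects were 0.72 ± 0.33 for Ifi35 and 0.34 ± 0.19 for Lgals3bp, and male effects were -0.45 ± 0.32 and -0.30 ± 0.19. Ifi27, a mitochondrial and nuclear protein, had 0.25 ± 0.26 in females and -0.44 ± 0.26 in males.

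The last role holds the GTPases that interferon-gamma induces most strongly, which attack the membranes around intracellular bacteria and parasites. Igtp had 43.9, 33.5 and 44.4 CPM in IVF females, 25.8, 26.2 and 25.9 in natural females, 35.4, 36.4 and 50.8 in IVF males and 24.9, 50.6 and 40.7 in natural males. The natural females were nearly level for Igtp and every IVF female lay above them, at 0.64 ± 0.25 (adjusted p = 1, edgeR), and its males overlapped at 0.08 ± 0.25, or -0.16 without natural male 1. Exons of Igtp and Irgm2 overlap by 162 bases. Iigp1 had 654, 531 and 596 CPM in IVF females, 401, 601 and 572 in natural females, 364, 385 and 413 in IVF males and 337, 639 and 351 in natural males. Iigp1, which loads onto the vacuoles of parasites, overlapped in both sexes, at 0.18 ± 0.26 in females and -0.19 ± 0.26 in males, the latter 0.16 without natural male 2. Irgm1 had every IVF female above every natural female, at 0.51 ± 0.28.

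The guanylate-binding proteins Gbp2, Gbp3 and Gbp7 lie in 1 cluster on chromosome 3 (GRCm38 chr3:142530342-142638008, from the start of Gbp7 to the end of Gbp2) and were the members called between the sexes of IVF mice. Gbp2 had 15.3, 11.4 and 9.92 CPM in IVF females, 4.85, 11.6 and 7.36 in natural females, 4.12, 3.69 and 4.304 in IVF males and 4.25, 3.94 and 4.59 in natural males. Gbp3 had 14.2, 12.6 and 7.65 CPM in IVF females, 4.89, 11.3 and 6.26 in natural females, 3.64, 2.02 and 2.85 in IVF males and 2.74, 4.44 and 3.56 in natural males. Gbp7 had 85.5, 43.1 and 54.1 CPM in IVF females, 25.4, 59.4 and 33.9 in natural females, 17.7, 18.7 and 16.1 in IVF males and 15.5, 21.2 and 19.96 in natural males. In all 3 genes every female library lay above every male library, whatever the mode of conception. Of all genes, 10.1% had every IVF male below every IVF female, and 9.85% had every natural male below every natural female. The share of all genes with every female library above every male library was not counted. Within females the IVF and natural libraries of Gbp2, Gbp3 and Gbp7 overlapped, because the shallow natural female 2 lay within the IVF range. The effects were 0.63 ± 0.29, 0.63 ± 0.36 and 0.62 ± 0.32. Within males they were -0.08 ± 0.29, -0.34 ± 0.37 and -0.11 ± 0.32, all with overlapping groups and adjusted p = 1 in edgeR.

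**Figure D4:**
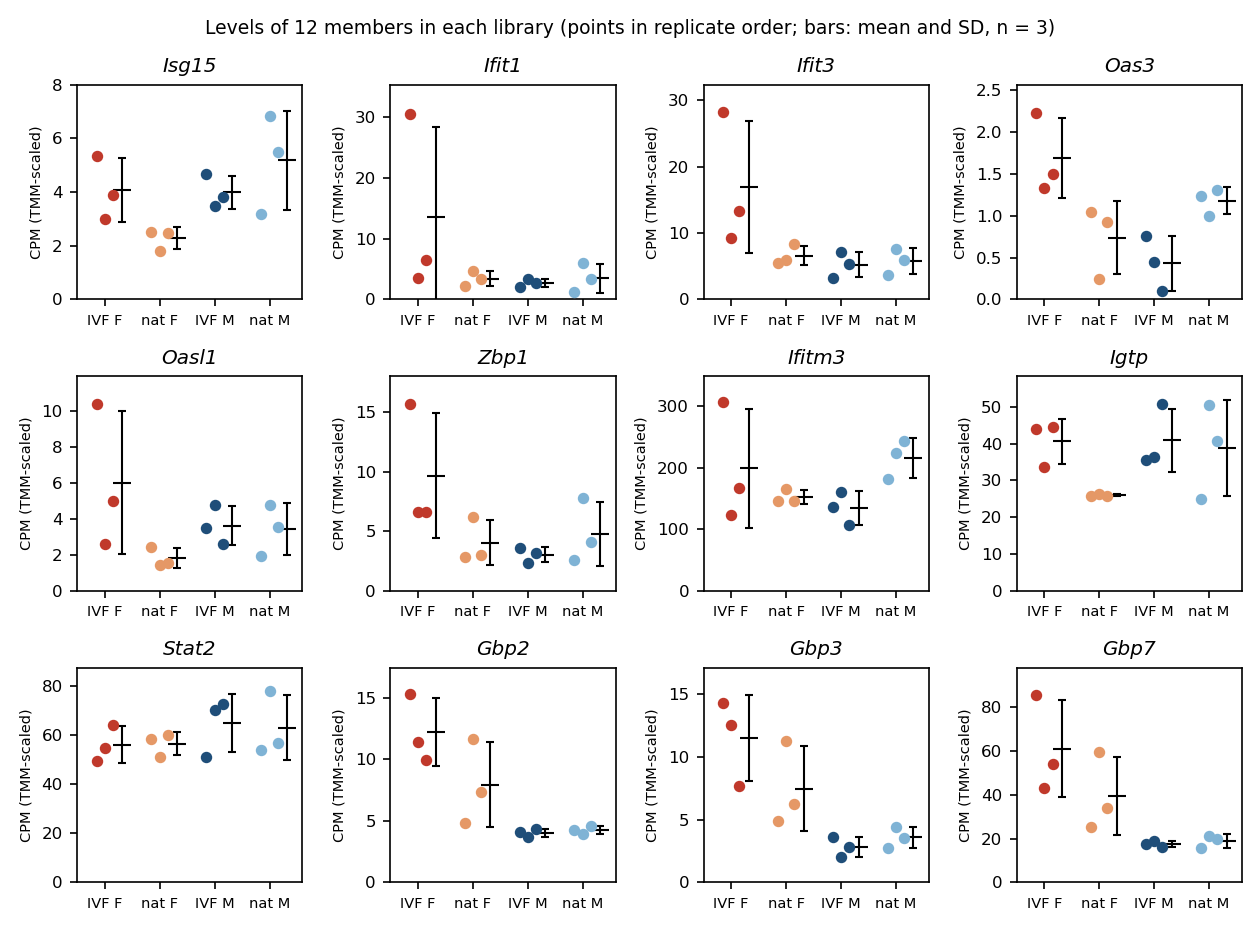
CPM of 12 members in each library, by group (points; the horizontal mark and bar beside them are the mean and SD of 3 libraries, with bars cut at 0). IVF female 1 is the highest point for Ifit1, Ifit3, Oas3, Oasl1, Zbp1 and Ifitm3, and all female points of Gbp2, Gbp3 and Gbp7 lie above all male points.

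Males were also compared with females of the same mode of conception. Among IVF mice, Gbp2, Gbp3 and Gbp7 were lower in males, at -1.58 ± 0.30, -2.01 ± 0.37 and -1.79 ± 0.33 on the log2 scale, with adjusted edgeR p-values of 0.0161, 0.0153 and 0.0137. They were the 3 of 45 members called (6.67%, beside 2.19% of all genes in either direction and 1.28% lower). These calls rest on each IVF male: without IVF male 2 or IVF male 3 no member was called, without IVF male 1 only Gbp3 and Irf1 were, and without IVF female 2 Gbp3 was lost. All 8 Kupffer cell markers were lower in IVF males than in IVF females too, with a median of -1.09, and their part in these calls was not tested. The effects of the 3 genes stayed between -1.34 and -2.24 over all fits, and the highest adjusted p of the 3 genes in any fit was 0.0764. DESeq2 called 13 of the 45 here, beside 5.47% of all genes, and limma voom called 3, beside 2.11%. Among 58 further interferon-induced genes Gbp5, a neighbour of this cluster, was the single one called (-1.72 ± 0.40, adjusted p = 0.0466 in edgeR), or 1.72% beside 2.19% of all genes, and its adjusted p reached 0.1413 with single libraries left out.

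Over all 45 genes, 36 were lower in IVF males than in IVF females, with a median of -0.62, beside 0.01 and 50.7% of genes higher over all genes. At an unadjusted edgeR p under 0.05 there were 17, all lower (37.8%, beside 14.9% of all genes in either direction and 7.92% lower). Groups did not overlap for 22, of which 21 were lower in males and Bst2 was higher (48.9%, beside 21.8% of all genes, 10.1% lower and 11.8% higher). The median was -0.39 without IVF female 1. Among naturally conceived mice the direction was mixed. There 27 of 45 were higher in males, with a median of 0.21, beside -0.02 and 47.9% of genes higher over all genes, and none was called beside 1.77% of all genes (edgeR). DESeq2 called 5 of the 45 there, namely Isg15, Gbp7, Ifi35, Lgals3bp and Ifi27, beside 5.14% of all genes, and limma voom called 0 beside 1.76%. At an unadjusted p under 0.05 there were 7 higher and 4 lower (24.4%, beside 14.9% of all genes, 7.21% higher and 7.71% lower). Groups did not overlap for 9 higher and 4 lower (28.9%, beside 20% of all genes, 10.1% higher and 9.85% lower). The 4 lower were Irf1, Gbp2, Gbp3 and Gbp7, and the 9 higher were Isg15, Oas1b, Mx2, Ifitm3, Dhx58, Irf7, Ifi35, Lgals3bp and Ifi27. The median turned to -0.02 without natural male 2, and to -0.10 with scaling by library size alone, which puts the median of all genes at -0.34. The sex comparisons reuse the libraries of the IVF comparisons and are not independent of them.

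**Figure D5:**
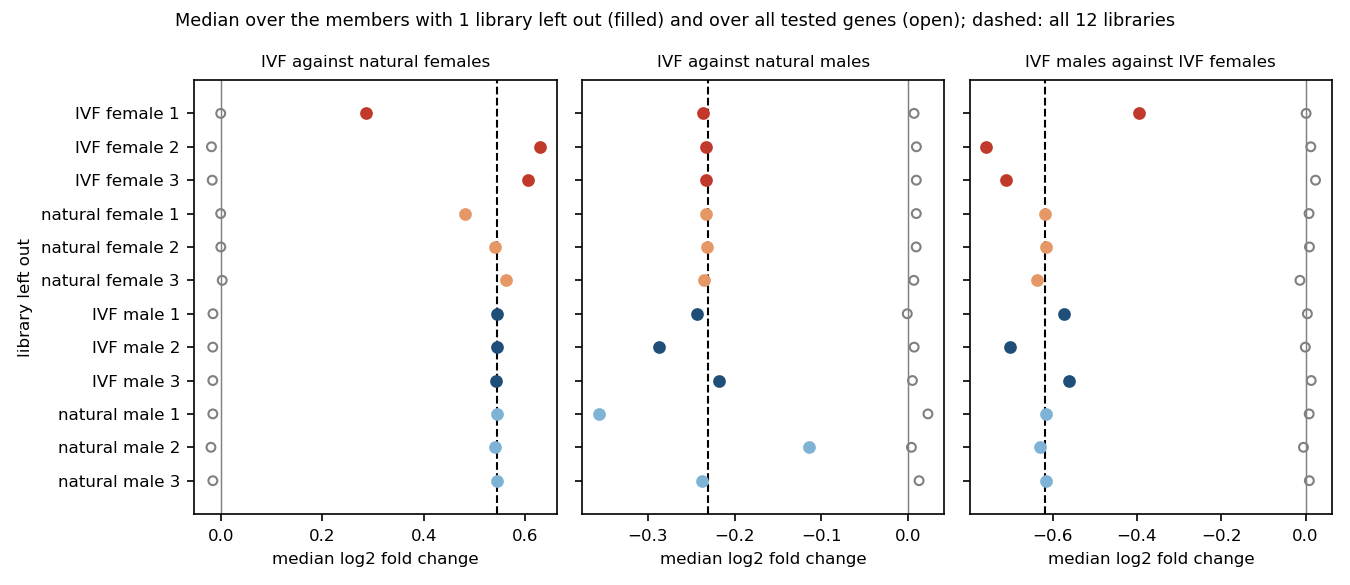
Median log2 fold change over the 45 genes when the library named on the vertical axis was left out (filled points), beside the median over all tested genes (open points), for 3 comparisons; the dashed line is the median with all 12 libraries. In females the median goes from 0.54 to 0.29 without IVF female 1, and in males from -0.23 to -0.11 without natural male 2.

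A further 58 tested genes known to be induced by interferon, outside the 45, were read in the same fits. In females 45 were higher (77.6%, beside 47.8% of all genes) with a median of 0.27, and 4 had an unadjusted edgeR p under 0.05 (6.9%, beside 3.7%), all higher (Ifit3b, Slfn8, Ms4a4b and Ddx60). In males 43 were lower (25.9% were higher, beside 51.6% of all genes) with a median of -0.28, and 4 had an unadjusted p under 0.05 (6.9%, beside 2.69%), all lower (Ifi27l2a, Ifitm2, Uba7 and Psmb8). These 8 are named after their values were seen. Between IVF males and IVF females, 51 of the 58 were lower in males with a median of -0.84, beside 0.01 over all genes. Between natural males and natural females, single genes of this list went either way. On the log2 scale Cxcl9 (-3.18), Tgtp1 (-1.82) and Ccl5 (-1.73) were lower in natural males. Apol9a (1.30), Apol9b (1.12) and Ube2l6 (0.89) were higher in them. None of these was called in edgeR, and they too are named after their values were seen.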

How the data were processed

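RNA of whole liver from 12 mice was sequenced by the authors after poly-A selection, and the deposited table gives raw counts, 1 whole number for each gene symbol and library. The submitters' processing notes list Trimmomatic 0.32, STAR 2.3.0e, featureCounts 1.5.0 and the build mm10; strand use and the treatment of reads matching several genes are not given in the sources used here. Library totals were 6826534 to 27832271 counts.

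Groups came from the sample titles. Counts were fitted with edgeR 4.0.16 in R 4.3.3 (filterByExpr by group, TMM scaling, quasi-likelihood test) in 1 model of 4 group means over 12 libraries, on 13204 genes, with Benjamini-Hochberg adjustment over all of them; a gene is called at an adjusted p under 0.05. CPM values are TMM-scaled, and log2 CPM for the library scores used a prior count of 2. The standard error of a log2 fold change was taken from the test's F value. A count of 0 was read against a floor of 3 counts in each library, which covers counting error only. Fold changes, medians and counts over the 45 genes are descriptions, and no test was made over the list. Alternatives were DESeq2 1.42.0, limma 3.58.1 voom, other scalings and filters, the 6 libraries compared alone, a term for or omission of the 2 shallow libraries, and omission of each library. The fit was tested on simulated data in which genes with a mean above 2 CPM were raised in IVF females. At an adjusted p under 0.05 it called 19.4% of 2-fold, 86.6% of 4-fold and 92.4% of 8-fold changes, with 7 false calls. Most 2-fold changes were therefore missed, and recovery at lower levels, such as those of Mx1 and Oas3, was not tested. Within groups, libraries differed by more than sampling noise, so none was counted as a repeat. Gene positions and exon lengths are from GENCODE M21 (GRCm38).

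Members and lists were chosen with earlier results of these data known. Per-library values are given for members with an unadjusted p under 0.05 in an IVF comparison or the interaction, for members called between the sexes, and for representatives of each role; 1 gene of the pathway is not reported here.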

Additional observations from a re-analysis of the deposited data

Results flagged for a closer look

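Oas3 was the only 1 of the 45 genes in which every IVF female lay above every natural female and every IVF male below every natural male. Of all tested genes, 3.55% met the condition in females and 4.07% the condition in males. The share of all genes meeting both was not counted, so whether 1 of 45 is unusual is not known. The male effect of IVF was lower than the female one by an interaction of -2.53 on the log2 scale, with an adjusted p of 1 in edgeR, so the difference does not pass the correction over all genes. It ranged from -3.13 (without IVF male 1) to -2.02 (without the 2 shallow libraries) over the alternatives, and counts of Oas3 were 2 to 35 per library.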

How the results depend on the processing

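No paired analysis was possible because the groups compared share fewer than 2 numbers: 1 leading title number is shared, by IVF female 1 and IVF male 2, and the labels do not say what it marks. None of the printed effects that changed sign was called. The female log2 effect of Oas1a was -0.13, but 0.25 without IVF female 1 and 0.53 without natural female 3. In females, with each library left out, the log2 effects spanned -0.34 to 1.27 for Rsad2, -0.056 to 0.63 for Ifitm3, -0.39 to 0.063 for Bst2 and -0.12 to 0.091 for Stat2; without the 2 shallow libraries Rsad2 was -0.62 and Stat2 was 0.018. In males they spanned -0.77 to 0.24 for Ifit1, -0.41 to 0.12 for Ifit3, -0.36 to 0.16 for Iigp1, -0.16 to 0.31 for Igtp, -0.30 to 0.20 for Irf1, -0.20 to 0.40 for Oasl1, -0.21 to 0.19 for Dhx58, -0.29 to 0.085 for Dtx3l and -0.060 to 0.22 for Stat2. With library size alone, male effects were 0.012 for Dtx3l, 0.050 for Gbp2, 0.028 for Gbp7 and 0.0010 for Ifit3, and limma voom gave -0.022 for Irf1. Between IVF and natural females 0 genes were called in edgeR and 4 in DESeq2. In males the counts were 1 in edgeR, 5 in DESeq2 and 0 in limma voom, and for the interaction 0 in edgeR and 9 in DESeq2, with no member among any of these. Between natural males and females 234 genes were called (118 higher, 116 lower), but 510 (88 higher, 422 lower) with library size alone, 678 in DESeq2, 139 with the 6 libraries alone and 458 with a term for the shallow libraries. Members called there were 0, but 2 with library size alone, 5 in DESeq2 and 2 with the shallow term, and the median of -0.10 with library size alone differed in sign from 0.21. Between IVF males and females 289 genes and 3 members were called, but 721 genes and 13 members in DESeq2 and 438 genes with the shallow term. Library size alone gave 313 genes (92 higher, 221 lower, against 120 and 169).

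With each library left out, the median of the members was 0.29 to 0.63 for IVF females and -1.03 to -0.51 for the interaction. Genes called were 0 to 1 for IVF males, 111 to 263 between natural sexes and 137 to 348 between IVF sexes, where 0 to 4 members were called. Members whose groups did not overlap numbered 27 in females without the 2 shallow libraries (60% beside 36.1% of all genes). Of these, 25 were higher and 2 lower in IVF females, beside 2265 higher and 2496 lower of 13204 genes. In males without natural male 2 there were 12 (26.7% beside 20.2%). Of these, 8 were lower and 4 higher in IVF males, beside 1290 lower and 1381 higher of all genes. Leaving out libraries can only raise such a count, and both settings were chosen after seeing the data. Low counts limit Mx1, Oas1a, Oas1b, Oas1g, Oas2 and Oas3, which had under 10 counts in at least 1 library; for Oas1a and Oas2 these were shallow libraries alone, and for the other 4 deeper libraries as well. The causes of these shifts were not tested.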

Other observations

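Genes with and without the ISRE core motif in the promoter had like medians in females. The median log2 IVF effect was 0.54 over the 18 genes with the motif, 0.51 over the 15 without it and 0.57 over the 12 with no promoter entry, and in males the medians were -0.28, -0.13 and -0.35. No test was made between these sets of genes.

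Single genes reached their highest value in different libraries, and IVF female 1 was the highest library for 28 of the 45 but the lowest for 3, Trim25 and Oas1a among them. Natural female 2, the other shallow library, was the lowest for 11. Of the groups, IVF females had the highest mean CPM for 30 genes, natural males for 9, IVF males for 4 (Mx1, Dhx58, Stat2 and Igtp) and natural females for 2 (Trim25 and Oas1a).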
